A study of Mus musculus with 6 samples.

Results

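The interferon-inducible GTPases examined here are 9 mouse genes, namely the guanylate-binding protein genes Gbp2, Gbp3, Gbp6 and Gbp7 and the immunity-related GTPase genes Igtp, Irgm1, Irgm2, Iigp1 and Tgtp1. They were taken by symbol from a table of read counts for 24421 genes, by a rule that uses the symbol alone. All 9 had a row in the table, and all 9 passed the filter on low counts that left 13084 genes for testing.

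Total RNA was sequenced from 4T1-tetL1(GLucAI) cells to examine how induction of the retrotransposon LINE-1 (L1) changes interferon and NF-κB driven transcripts. These cells descend from 4T1, a mouse breast carcinoma line of strain BALB/cfC3H, and form a selected population with PiggyBac insertions rather than 1 clone. In all 6 libraries the cells carried the same cassette, in which a tetracycline-responsive promoter drives a recoded mouse L1 with an interrupted Gaussia luciferase reading frame and a firefly luciferase, while a constitutive EF1α promoter drives the Tet-On activator. A group of 3 libraries came from untreated cells, named vehicle in the treatment tag, and 3 libraries came from cells exposed to 400 ng/mL doxycycline for 48 h. Cells without the cassette and exposed to doxycycline were not analysed here, so an effect of the drug and an effect of the cassette cannot be told apart. The cassette transcript was not analysed either, so the second group is called the libraries labelled doxycycline. For these cells at this dose and time the paper reports induction of L1 ORF1 protein by staining and of Gaussia luciferase signal. The libraries held between 31653464 and 43631312 counts, and the 45S precursor Rn45s took 8.83 to 12.1% of them. Doxycycline replicates 2 and 3 lay at opposite ends of their group for 8 of the 9 GTPase genes, and calls that turn on either library are given with and without it.

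Interferons bind receptors on the cell surface and signal through Janus kinases to STAT factors, which enter the nucleus with partners of the interferon regulatory factor (IRF) family. STAT dimers bind a promoter element called GAS, and complexes that contain IRF proteins bind the interferon-stimulated response element (ISRE). Guanylate-binding proteins (GBPs) and immunity-related GTPases (IRGs) are among the most strongly interferon-gamma-induced proteins of mouse cells. They assemble on the membranes of vacuoles that hold parasites or bacteria, break them open and expose microbial products to inflammasomes. In mice the IRG family has regulatory members of the Irgm type, which sit on the cell's own membranes, and effector members, which load onto vacuoles.

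The promoter sequences of these genes are shown as a description. The choice by symbol did not use sequence, but the genes are known as interferon-inducible. Interferon elements in their promoters are therefore no independent result. RefSeq promoters of the GRCm38.p6 build, from 250 bases before to 50 bases after the start of transcription, were at hand for 7 of the 9 members and not for Gbp6 and Iigp1. Each was searched for the ISRE core, spelled GAAA, any 2 bases and GAAA again, or on the opposite strand TTTC, any 2 bases and TTTC. Capitals mark the matches and lower case the flanking bases, and every sequence is read 5′ to 3′ on the strand of its gene.
Gbp2 at chr3:142620584-142620633, plus strand: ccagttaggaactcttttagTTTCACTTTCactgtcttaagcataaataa
Gbp3 at chr3:142559979-142560034, plus strand: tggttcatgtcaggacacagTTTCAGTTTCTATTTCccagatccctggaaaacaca
Gbp7 at chr3:142530263-142530312, plus strand: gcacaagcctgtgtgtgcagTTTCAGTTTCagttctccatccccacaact
Irgm1 at chr11:48871415-48871470, minus strand: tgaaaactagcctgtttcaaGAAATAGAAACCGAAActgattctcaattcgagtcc
Igtp at chr11:58199502-58199551, plus strand: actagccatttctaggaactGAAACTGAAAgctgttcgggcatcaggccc
Irgm2 at chr11:58214893-58214942, plus strand: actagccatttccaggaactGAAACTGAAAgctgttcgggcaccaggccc
Tgtp1 at chr11:48992294-48992343, minus strand: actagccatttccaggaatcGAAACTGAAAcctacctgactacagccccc

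All 7 promoters held the ISRE core, against 3.99% of the 27025 genes with a promoter of this length. The first base of the first match lay between position -77 (Tgtp1) and position -30 (Irgm1) relative to the start. Gbp3 and Irgm1 each held 2 overlapping matches, and a second annotated start of Gbp3 had none. The 3 GBP promoters carried the TTTC orientation and the 4 IRG promoters the GAAA orientation. The GAS element, spelled TTCNNNGAA and identical on both strands in this form, was found in the promoters of Gbp7, Igtp, Irgm2 and Tgtp1, against 9.55% of all promoters. Of 11 other GTPase genes of these and related families with such a promoter, 7 held the ISRE core and 4 the GAS element. In Igtp, Irgm2 and Tgtp1 it lies inside the printed sequence, ahead of the ISRE core and without overlap. The promoters of Igtp and Irgm2 matched at 244 of 270 aligned bases (90.4%), the longest local alignment of any pair of members. A match of letters is a description of the sequence and does not show that a factor was bound in these cells.

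The members lie in clusters. By RefSeq on GRCm38, Gbp7 (chr3:142530336-142550151), Gbp3 (chr3:142560016-142573213) and Gbp2 (chr3:142620663-142638008) lie in 1 cluster on chromosome 3, with Gbp2b between the last 2, and Gbp6 (chr5:105270702-105295871) lies in a second GBP cluster on chromosome 5. Irgm1 (chr11:48865245-48871420) and Tgtp1 (chr11:48985329-48992246) lie close together on chromosome 11. Igtp (chr11:58199556-58207592) and Irgm2 (chr11:58214977-58222783) lie further along the same chromosome, and Iigp1 lies on chromosome 18. Relatedness of sequence limits what a read count can assign to some of these genes. Of the 50-base stretches in Tgtp1 transcripts of the GENCODE M21 annotation, 79.4% also occur in Tgtp2. Of those of Gbp6, 90.2% also occur in the gene model Gm43302, which had no row among the counts, and 62.3% in Gbp10. The counts of Tgtp1 and Gbp6 are therefore uncertain. The shared part was 11.8% for Igtp, whose partner is Irgm2, and between 0.956% and 12.7% for the other 6 members. On the same strand GENCODE also draws Gm43302 across 99.99% of the span of Gbp6, Irgm2 across 99.2% of that of Igtp, and Gm12185 across 78.0% of that of Tgtp1. In GENCODE Tgtp1 further lies inside Olfr56 of the opposite strand. By the RefSeq coordinates, however, Igtp and Irgm2 do not overlap, and neither do Tgtp1 and Gm12185. The paper counted reads on the annotation of the UCSC mm10 genome, so overlaps that GENCODE alone draws may not bear on these counts. How the counting treated reads of shared sequence or of overlapping genes is not given in the sources used here.

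Levels are given as CPM, counts per 1000000 of a library total scaled by the trimmed mean of M-values (TMM), and genes are compared with each other only per kilobase of exon. Irgm1, a regulator of IRG loading and of autophagy, had the highest level of the 9 in untreated cells, 12.3 ± 0.418 CPM per kilobase (SD, n = 3). Igtp followed with 3.86 ± 0.185, Gbp3 with 3.46 ± 0.370 and Irgm2 with 3.14 ± 0.183 CPM per kilobase. Irgm1 did not overlap with Igtp over the 3 untreated libraries, while the ranges of Igtp and Gbp3 overlapped, as did those of Gbp3 and Irgm2. Gbp2 had 2.65 ± 0.146 and Gbp7 had 2.49 ± 0.0766 CPM per kilobase, with overlapping ranges, and both lay below Irgm2 in every untreated library. The effector genes lay at the bottom, with 0.614 ± 0.204 CPM per kilobase for Iigp1 and 0.425 ± 0.115 for Tgtp1, below Gbp6 at 0.894 ± 0.227. The ranges of these last 3 genes overlapped from neighbour to neighbour. Because the counts of Gbp6 and Tgtp1 are uncertain, as stated above, so are their levels and places in this order. In CPM without the length, Irgm1 stood at percentile 53.4 and Tgtp1 at percentile 12.3 of the tested genes of untreated cells, so these transcripts were present at middle to low levels without added interferon. The libraries labelled doxycycline gave the same order except that Gbp3 and Igtp traded places, as did Gbp2 and Gbp7.

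**Figure D1:**
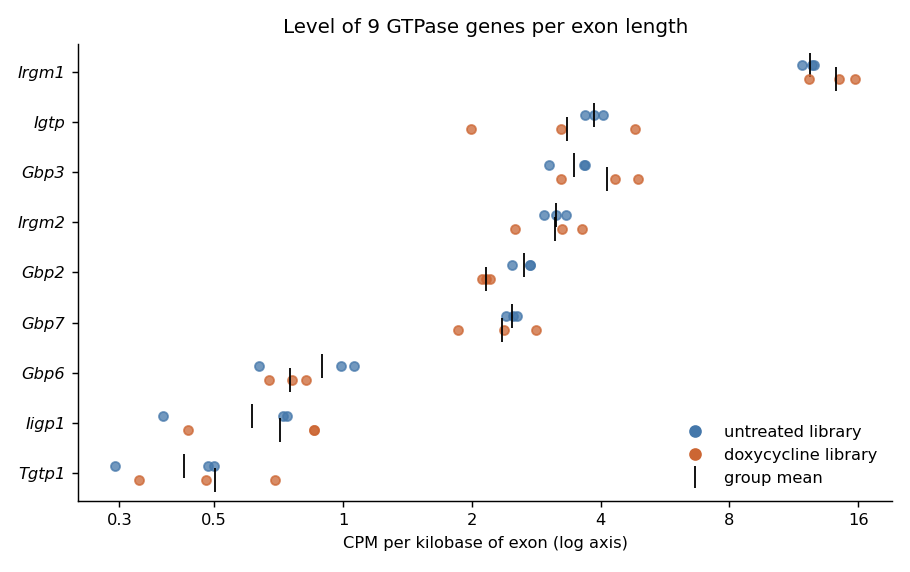
Level of each member in CPM per kilobase of exon (log axis), with a point for each of the 3 untreated and 3 doxycycline libraries and a bar at each group mean. Irgm1 lies apart at 12.3 CPM per kilobase in untreated cells, and the group means of Gbp6, Iigp1 and Tgtp1 lie below 1.

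None of the 9 members passed the test between the groups. With edgeR's quasi-likelihood test and Benjamini-Hochberg adjustment over 13084 genes, 0 members were called higher and 0 lower at an adjusted p of 0.05, against 0.925% of all tested genes called higher and 2.16% called lower. At an unadjusted p under 0.05 there were 2 members, Gbp2 and Irgm1, and their estimates had opposite signs, beside 16.2% of all tested genes at that level. The Wald test of DESeq2 and limma voom also gave 2 members at that level and called 0. By sign, 4 members were higher in the libraries labelled doxycycline and 5 were lower, with a median log2 fold change of -0.003 beside 0.002 over all tested genes. The groups did not overlap for 1 member, Gbp2, beside 21.3% of all tested genes.

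Among the GBP members, Gbp2, whose product gathers on bacterial membranes and on vacuoles of Toxoplasma, had 6.88, 6.89 and 6.25 CPM in untreated replicates 1 to 3 and 5.44, 5.56 and 5.30 CPM in doxycycline replicates 1 to 3. All 3 libraries labelled doxycycline lay below all 3 untreated ones. The log2 fold change was -0.30 ± 0.13 (SE; 95% interval -0.56 to -0.03) with an edgeR adjusted p of 0.246. Gbp3, a close relative in the same cluster, gave 11.2, 9.26 and 11.2 CPM in untreated and 13.2, 14.9 and 9.85 CPM in doxycycline replicates. Doxycycline replicates 1 and 2 lay above every untreated library and replicate 3 within their range. Its log2 fold change was 0.26 ± 0.13 (SE; 95% interval -0.01 to 0.53), adjusted p = 0.338 in edgeR.

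Gbp7, which has been tied to delivery of the oxidase machinery to phagosomes, had 14.1, 14.3 and 13.5 CPM in untreated and 13.4, 15.9 and 10.4 CPM in doxycycline replicates. The untreated libraries lay close together, with doxycycline replicate 2 above them and replicates 1 and 3 below. The log2 fold change was -0.08 ± 0.12 (SE; 95% interval -0.32 to 0.17) with an edgeR adjusted p of 0.815. Gbp6 of the chromosome 5 cluster gave 2.57, 2.76 and 1.66 CPM in untreated and 1.98, 2.13 and 1.75 CPM in doxycycline replicates, from 62 to 113 counts a library. The group ranges overlapped, and untreated replicate 3 was the lowest library of all. For Gbp6 the log2 fold change was -0.25 ± 0.23 (SE; 95% interval -0.72 to 0.22), adjusted p = 0.637 in edgeR.

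Among the regulatory IRG members, Irgm1 had 28.8, 27.3 and 29.1 CPM in untreated replicates and 33.3, 36.3 and 28.3 CPM in doxycycline replicates. Doxycycline replicates 1 and 2 were above all untreated libraries, and replicate 3 was inside their range. The log2 fold change was 0.20 ± 0.08 (SE; 95% interval 0.03 to 0.37) with an edgeR adjusted p of 0.212. Irgm2, which sits on the Golgi apparatus and restrains noncanonical inflammasome signalling, had 10.9, 11.6 and 12.3 CPM in untreated and 12.01, 13.4 and 9.30 CPM in doxycycline replicates. The doxycycline libraries spread to both sides of the untreated ones. Its log2 fold change was -0.003 ± 0.119 (SE; 95% interval -0.25 to 0.25), adjusted p = 0.993 in edgeR.

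Igtp, also called Irgm3 and found on the endoplasmic reticulum and lipid droplets, had the widest spread among the well-counted members. Its values were 7.42, 7.79 and 8.17 CPM in untreated and 6.54, 9.72 and 4.02 CPM in doxycycline replicates. Doxycycline replicate 2 was the highest of the 6 libraries and replicate 3 the lowest, with 397 and 154 counts behind them. The log2 fold change was -0.20 ± 0.25 (SE; 95% interval -0.76 to 0.36) with an edgeR adjusted p of 0.762. Without doxycycline replicate 2 it was -0.57 ± 0.16 (SE) with an edgeR adjusted p of 0.0193, the sole call of a member in any of the 15 alternatives run on all members. Without doxycycline replicate 3 it was 0.07, so the sign of Igtp turned on which of these 2 libraries was kept.

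The effector IRG members were counted more thinly. Iigp1, also called Irga6 and the classical effector at the Toxoplasma vacuole, had 1.18, 2.31 and 2.27 CPM in untreated and 2.67, 2.67 and 1.36 CPM in doxycycline replicates, from 52 to 109 counts a library. Each group held 1 low library, untreated replicate 1 and doxycycline replicate 3, and the ranges overlapped. The log2 fold change was 0.23 ± 0.28 (SE; 95% interval -0.36 to 0.81) with an edgeR adjusted p of 0.748, and without untreated replicate 1 it was -0.04. Tgtp1, also called Irgb6 and among the first proteins to reach the vacuole, had 1.37, 1.41 and 0.828 CPM in untreated and 1.35, 1.96 and 0.940 CPM in doxycycline replicates, from 31 to 80 counts a library. Doxycycline replicate 2 was the highest and untreated replicate 3 the lowest library. Its log2 fold change was 0.24 ± 0.31 (SE; 95% interval -0.40 to 0.89), adjusted p = 0.759 in edgeR, and it was -0.08 without doxycycline replicate 2. With the counts of its near-copy Tgtp2 added, the log2 fold change was 0.22.

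**Figure D2:**
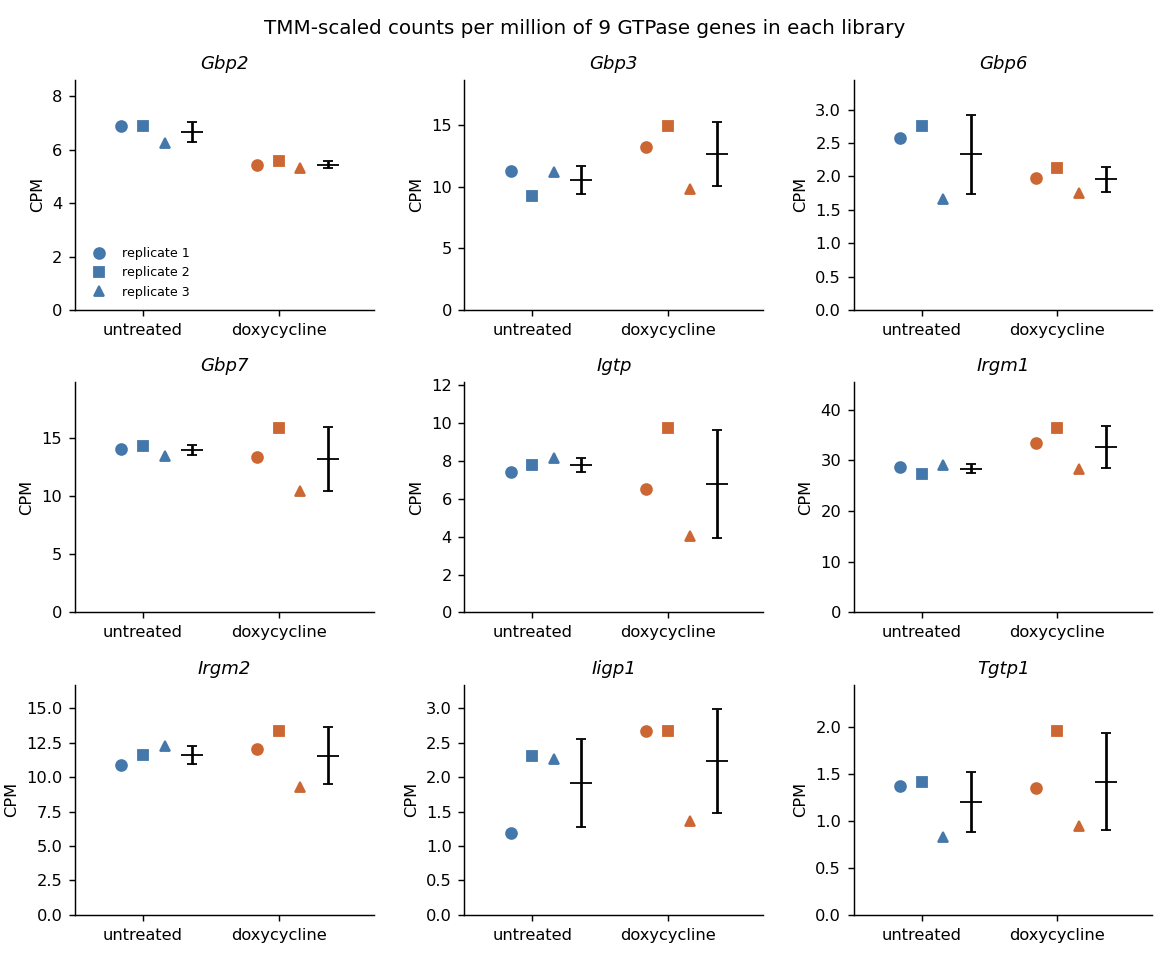
TMM-scaled CPM of each member in each library, with the axis from 0, marker shape for the replicate number, and the group mean with its SD beside the points. Doxycycline replicate 3 (triangle) is the lowest doxycycline library in all 9 panels, and the groups are apart only for Gbp2.

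**Figure D3:**
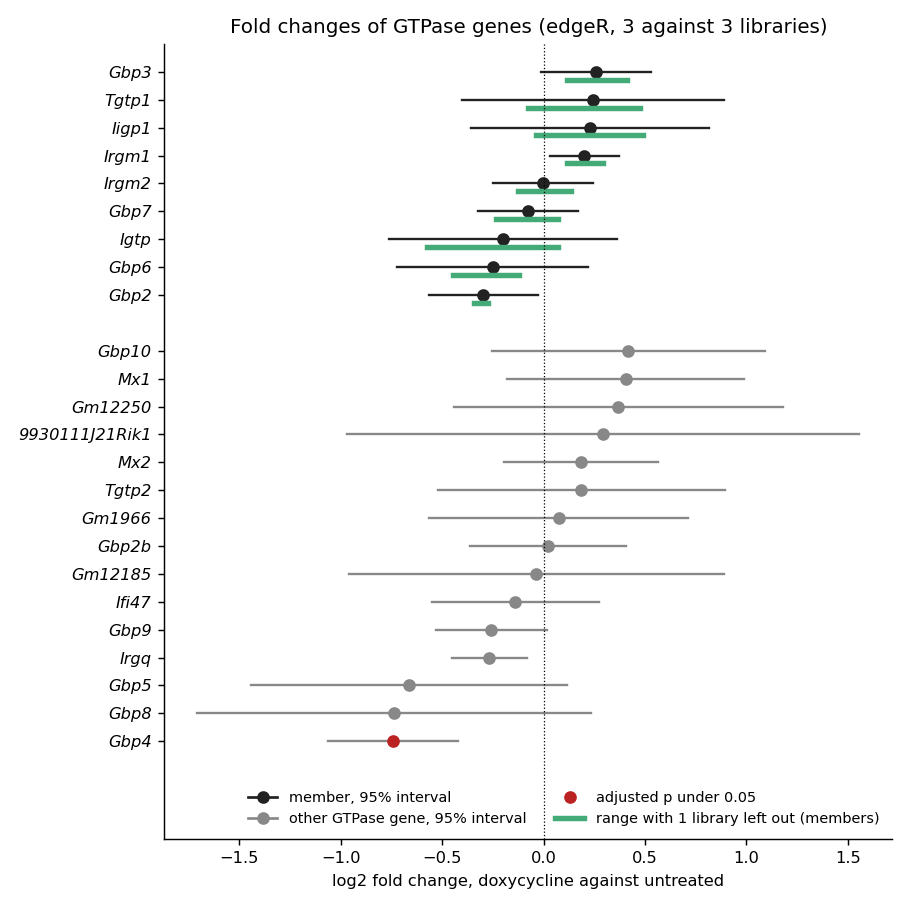
Log2 fold changes of the 9 members and of 15 other tested GTPase genes with 95% intervals from edgeR, and for members the range of estimates with 1 library left out. The member intervals reach at most from -0.76 (Igtp) to 0.89 (Tgtp1), and Gbp4 is the gene past the threshold.

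The intervals state what this depth and spread could bound. As folds of the libraries labelled doxycycline over untreated, they ran from 0.840 to 1.19 for Irgm2 and from 0.799 to 1.13 for Gbp7. For Tgtp1 they ran from 0.756 to 1.85 and for Iigp1 from 0.781 to 1.76. Changes inside these limits are not excluded by these libraries. The biological coefficient of variation that edgeR gave ranged from 6.59% (Irgm1) to 21.4% (Tgtp1) over the members, beside 6.04% for the common value of all tested genes.

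The larger pattern in these genes lay among the libraries labelled doxycycline. All 9 members had their lowest doxycycline value in replicate 3, beside 29.4% of all tested genes, and 8 of 9 had their highest in replicate 2, beside 37.4%. Both held for 8 members and for 16.1% of tested genes, and the exception was Iigp1, whose replicates 1 and 2 had 2.673 and 2.669 CPM. The ratio of replicate 2 to replicate 3 ran from 1.05 for Gbp2 to 2.42 for Igtp. Scaled by library size alone, the counts of members were again 9 and 8.

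Measured from the untreated mean on the log2 CPM scale, the median of the 9 members was 0.05 in doxycycline replicate 1, 0.32 in replicate 2 and -0.33 in replicate 3. The same median over all tested genes lay between 0.001 and 0.004 in these libraries. No member was above its untreated mean in replicate 3, and 7 were in replicate 2. The members summed to 83.7 to 85.2 CPM in the untreated libraries, and to 89.9, 102.6 and 71.2 CPM in doxycycline replicates 1 to 3. The summed level thus lay above every untreated library in 2 of the doxycycline libraries and below every untreated library in the third. The SD of log2 CPM was larger in the doxycycline group for 7 of the 9 members, all but Gbp2 and Gbp6, beside 62.4% of all tested genes. For 8 members, all but Gbp2, the SD within groups exceeded the median of 500 tested genes of like level. For Igtp these were 0.45 and 0.15 on the log2 scale. Replicates 2 and 3 held 41264244 and 38467996 counts, and Rn45s took 12.1% and 10.5% of them. The part of these differences in the pattern was not tested.

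**Figure D4:**
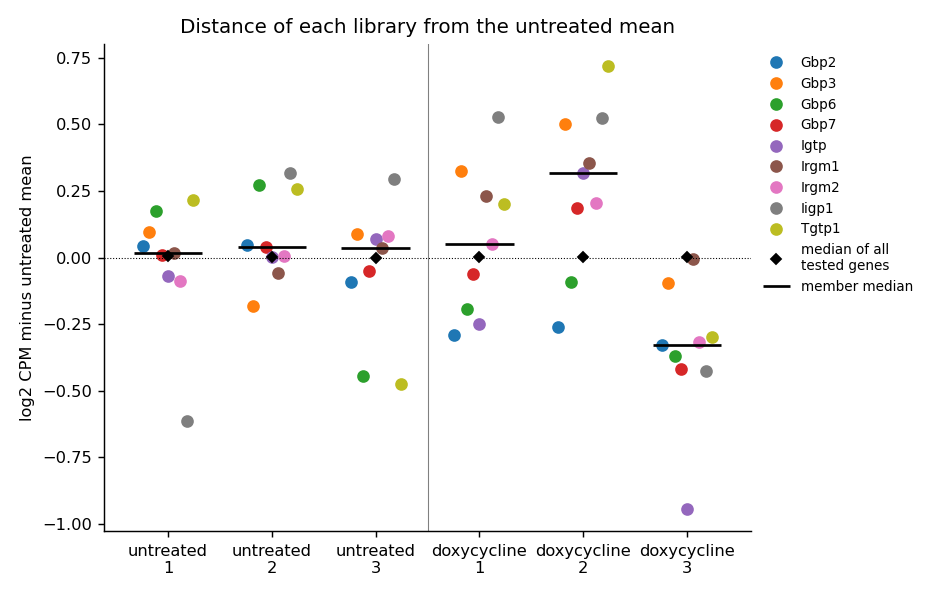
Log2 CPM of each member in each library minus that member's mean over untreated libraries. Points are members, bars their median and diamonds the median of all tested genes, which stays near 0. The member median is 0.32 in doxycycline replicate 2 and -0.33 in replicate 3.

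Across the 6 libraries the members moved partly together. Pearson's r between log2 CPM values was positive for 30 of 36 pairs of members, with a median of 0.53. The same share was not computed for pairs of other tested genes. Every r also includes the difference between doxycycline replicates 2 and 3 described above. Among the pairs of members r was highest for Gbp7 and Igtp (0.97) and for Gbp3 and Irgm1 (0.97), and lowest for Gbp2 and Irgm1 (-0.58). Gbp2 was also the member least like the mean standardised profile of the 9, with r = 0.22, while Gbp7 (0.98), Igtp (0.92) and Irgm2 (0.92) were most like it. Each member is itself part of that profile, which raises its r. These values describe 6 libraries and carry no test. The non-member genes with a mean of at least 1 CPM over the 6 libraries whose profiles were most like the mean member profile were Carns1 (r = 0.99), Mmaa (0.98), Maged2 (0.98), Parp14 (0.97), Gas8 (0.97) and Chmp2a (0.97). Of these, Parp14 is a known interferon-stimulated gene. It had 67.8, 73.9 and 72.2 CPM in untreated and 72.9, 83.8 and 55.2 CPM in doxycycline replicates, highest in doxycycline replicate 2 and lowest in replicate 3 as for Igtp. They were picked as the closest of the tested genes above that mean, so their r is a description and carries no test.

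Of the other GTPase genes of these and related families, 23 had a row and 15 were tested. Of these, 0 were called higher and 1 lower, beside 0.925% and 2.16% of all tested genes. That gene was Gbp4, a GBP of the chromosome 5 cluster, with 5.08, 5.70 and 4.99 CPM in untreated and 2.89, 3.48 and 3.004 CPM in doxycycline replicates. The groups were fully apart, and the spread inside each was small beside the distance between them. Its log2 fold change was -0.74 ± 0.15 (SE; 95% interval -1.06 to -0.42) with an edgeR adjusted p of 0.00783. The call was lost narrowly without untreated replicate 2 (adjusted p = 0.0583 in edgeR) and without doxycycline replicate 3 (adjusted p = 0.0513). Over the 15 tested genes 8 were higher and 7 lower by sign, with a median of 0.02 and a range from -0.74 to 0.42. Mx1 and Mx2 had log2 fold changes of 0.41 ± 0.28 and 0.19 ± 0.18 (SE), short of the threshold. In 10 of these 15 genes doxycycline replicate 3 was the lowest of its group, beside the 29.4% of all tested genes. Gbp9 of the chromosome 5 cluster was called lower when doxycycline replicate 2 was left out, at -0.44 with an edgeR adjusted p of 0.0188. The giant GTPase genes Gvin1 and Gm4070 had no count in any library.

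Upstream of the GTPases, the interferon ligands were at or close to 0. Ifng and the alpha and lambda interferon genes of the list, 7 of its 15 genes, had no count in any library. A count of 0 allows up to 3 counts, or 0.0683 to 0.0944 CPM in these libraries, which covers counting error only. Ifnb1 had 4, 0 and 2 counts in untreated and 2, 0 and 0 counts in doxycycline replicates, so no difference was detectable at this depth. The receptor chains were expressed, and 0 of 6 tested receptor genes were called, beside 0.925% of all tested genes called higher and 2.16% called lower. Ifngr1, which binds interferon gamma, had 23.2 ± 0.925 CPM (SD, n = 3) in untreated and 21.5 ± 0.658 in doxycycline libraries. Ifnar1 of the type I receptor had 66.7 ± 1.77 and 62.0 ± 4.70 CPM. The smallest p-values of this list belonged to Ifngr2 and Ifnar2, with log2 fold changes of -0.14 ± 0.07 and -0.13 ± 0.07 (SE). With a library left out they ran from -0.19 to -0.077 and from -0.17 to -0.077. In this list 5 of 6 tested genes were lower by sign, beside 49.2% of all tested genes. The list median was -0.10, and none of the 6 passed the threshold.

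Between the receptors and the promoters, 0 of 15 tested kinase and transcription factor genes were called higher and 1 was called lower. The shares of all tested genes were 0.925% and 2.16%. Jak2, a kinase of the interferon gamma receptor, had 166, 168 and 165 CPM in untreated and 143, 133 and 129.5 CPM in doxycycline replicates. The groups did not overlap. The log2 fold change was -0.30 ± 0.05 (SE; n = 3 a group) with an edgeR adjusted p of 0.000682. Irf1, a factor that binds ISRE-like elements, had 34.3 ± 1.24 CPM (SD, n = 3) in untreated and 29.7 ± 1.67 in doxycycline libraries, a log2 fold change of -0.21 ± 0.07 (SE; adjusted p = 0.121 in edgeR). It was called without doxycycline replicate 2 (-0.25, adjusted p = 0.0305). Irf9, the DNA-binding part of the type I complex, had 29.2 ± 1.06 and 32.2 ± 1.02 CPM with a log2 fold change of 0.14 ± 0.07 (SE; adjusted p = 0.310 in edgeR). The list median was 0.03.

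Among inhibitors of interferon signalling 0 of 13 tested genes were called, beside 0.925% of all tested genes called higher and 2.16% called lower. Socs1, which blocks Janus kinases, had 4.33 ± 0.137 and 4.25 ± 0.580 CPM (SD, n = 3). Usp18, which trims ISG15 and binds the type I receptor, had 6.29, 5.58 and 6.81 CPM in untreated and 7.05, 11.7 and 6.06 CPM in doxycycline replicates, again highest in doxycycline replicate 2. Its log2 fold change of 0.41 was 0.069 without that library. Pias2, the other gene with the smallest p-values of this list, had a log2 fold change of -0.10 ± 0.05 (SE), and of -0.063 without doxycycline replicate 2. For the machinery that places GTPases on vacuoles, 14 genes were tested, 0 called higher and 1 lower. Over all tested genes 0.925% were called higher and 2.16% lower. Sqstm1, a ubiquitin adaptor, had 278, 273 and 292 CPM in untreated and 244, 245 and 242 CPM in doxycycline replicates, with no overlap. Its log2 fold change was -0.20 ± 0.04 (SE) with an edgeR adjusted p of 0.0113, a call lost without untreated replicate 1 (adjusted p = 0.0535 in edgeR), untreated replicate 3 (0.150) or doxycycline replicate 3 (0.0610).

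Enzymes that attach and trim the lipid of CaaX-box GTPases such as Gbp2 held 6 tested genes, 0 of them called, with a median log2 fold change of 0.02. Over all tested genes 0.925% were called higher and 2.16% lower. In this list those with the smallest p-values were Icmt (0.10 ± 0.07) and Rce1 (0.08 ± 0.08, SE), which ran from 0.025 to 0.18 and from 0.034 to 0.13 with a library left out. Of 13 tested inflammasome and cell death genes, 0 were called, beside the same shares of all tested genes. By sign 8 were lower, beside 49.2% of all tested genes. Casp4, the mouse caspase-11 that senses lipopolysaccharide, had 4.05 ± 0.231 CPM (SD, n = 3) in untreated and 2.72 ± 0.280 in doxycycline libraries, a log2 fold change of -0.57 ± 0.17 (SE) with an edgeR adjusted p of 0.0727. The inflammasome adaptor Pycard had 6.79 ± 1.299 and 8.97 ± 0.390 CPM, a log2 fold change of 0.41 ± 0.13 (SE) with an edgeR adjusted p of 0.111. With no filter on low counts both passed, with edgeR adjusted p-values of 0.0497 for Casp4 and 0.0463 for Pycard.

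Among 24 tested further genes known to respond to interferon gamma, 0 were called, 6 were higher and 18 lower by sign, and the median log2 fold change was -0.11 with 8 genes at an unadjusted p under 0.05. Over all tested genes 0.925% were called higher and 2.16% lower, 49.2% were lower by sign and 16.2% reached that p. No test of the list was made. The lowest p-values were those of the complement inhibitor Serping1, with 1.22 ± 0.187 and 0.572 ± 0.199 CPM (SD, n = 3) and a log2 fold change of -1.12 ± 0.34 (SE) at an adjusted p of 0.0812 in edgeR, and of the immunoproteasome subunit Psmb8, with 19.1 ± 0.604 and 15.8 ± 1.34 CPM and a log2 fold change of -0.27 ± 0.09 (SE) at an adjusted p of 0.107. The DESeq2 Wald test and limma voom called 0 of the 24 as well.

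**Figure D5:**
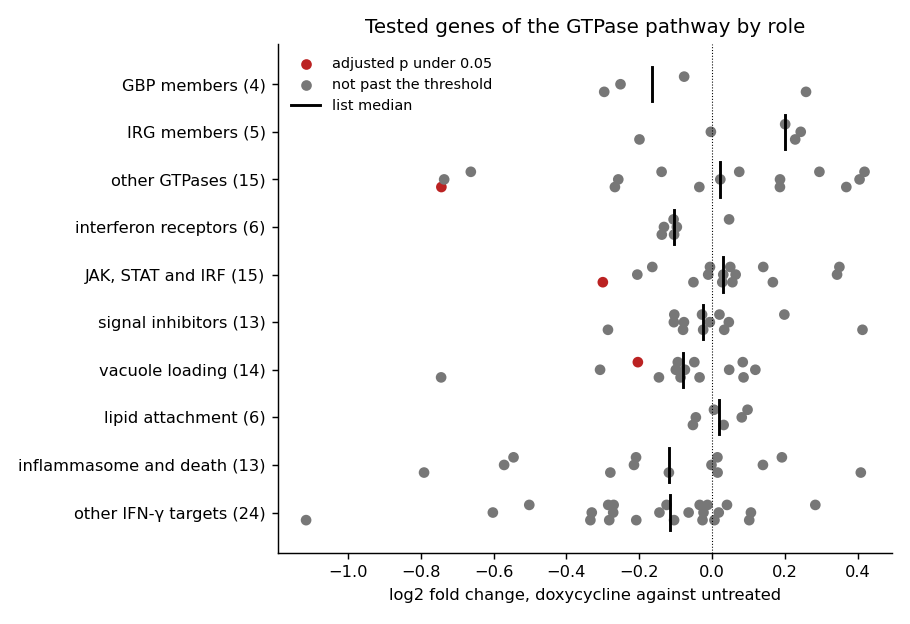
Log2 fold changes of the tested genes of each list, with the number of tested genes in brackets, bars at list medians and genes past an adjusted p of 0.05 in a separate colour. The genes past the threshold are Gbp4, Jak2 and Sqstm1, all lower in the libraries labelled doxycycline, and no member is among them. Over all tested genes 0.925% were called higher and 2.16% lower.

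The libraries carried the markers of an epithelial carcinoma. The 8 epithelial markers, keratins and Cdh1 among them, summed to 1838 to 1925 CPM in untreated and 1789 to 2023 CPM in doxycycline libraries. Of these markers 7 were higher by sign, beside 6641 of 13084 tested genes, and the list median log2 fold change was 0.03. The keratin Krt19, 1 of the 8, was called lower, beside 2.16% of all tested genes. Its log2 fold change was -0.31 ± 0.06 (SE) with an edgeR adjusted p of 0.00782. Leukocytes and endothelial cells also express GBPs and IRGs. The 12 leukocyte markers summed to 9.91 to 12.2 and 9.33 to 11.7 CPM, most of it Cd68, while Adgre1, Ms4a1 and Nkg7 were at 0 in all libraries. The 5 endothelial markers summed to 0.433 to 0.809 and 0.392 to 0.862 CPM. The 7 fibroblast markers summed to 35.7 to 38.7 CPM in untreated and 27.96 to 29.6 CPM in doxycycline libraries, nearly all of it Pdgfra, which was called lower (edgeR adjusted p = 0.000952), while Lum and Thy1 were at 0. The part of Krt19 and Pdgfra in the GTPase values was not tested. In bulk RNA, fewer cells expressing a gene and less RNA per cell cannot be told apart.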

How the data were processed

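Total RNA of 6 libraries, 3 untreated and 3 labelled doxycycline in their titles, was sequenced after depletion of ribosomal RNA with a kit that preserves strand. The study describes them as biological triplicates. The authors deposited raw read counts per gene, without normalization and with replicates kept apart. The submitters' processing notes name bcl2fastq 2.20, STAR, featureCounts and Subread 1.6.2 with builds mm10 and GRCm38. Whether counting used strand, and what became of reads with several or overlapping matches, is not given in the sources used here.

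The 9 members and the gene lists were chosen with earlier results of these data known. All 6 columns were matched to a sample, and 0 were left over. Of 24421 genes, 6760 had no count, and edgeR's filterByExpr kept 13084. These were fitted together with the quasi-likelihood test of edgeR 4.0.16 (R 4.3.3), robust, with TMM scaling and the group as its term, with p-values adjusted after Benjamini and Hochberg and read at 0.05. The test was two-sided. SE is the absolute log2 fold change over the square root of F. The chi-square of counts per degree of freedom was 6.14 to 22.1 for pairs within a group, above sampling noise in every pair, and all libraries entered as separate samples. Log2 CPM used a prior count of 2. Exon lengths and shared 50-base stretches came from GENCODE M21, and coordinates and promoters from RefSeq on GRCm38.p6. A comparison of the proteins was not run.

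Genes named are the members, from each other list those called (at most 3) or else the 2 with the smallest p, Irf1, Irf9, Socs1, Ifngr1, Ifnar1, Ifng and Ifnb1, and 6 genes of like profile. Genes outside this rule (Gbp9, Mx1, Mx2, Gvin1, Gm4070, Irf7, Map1lc3a, Ube2l6 and the cell markers) were picked after their values were seen. Alternatives were 3 other scalings, the replicate number as a block, no filter, a minimum of 10 counts per library, DESeq2 1.42.0, limma 3.58.1 voom, Rn45s left out, each library left out, and Tgtp1 and Tgtp2 summed. The scripts were tested on simulated data. A gene of the naming rule is not reported here.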

Additional observations from a re-analysis of the deposited data

How the results depend on the processing

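Each of the 9 members stayed short of an adjusted p of 0.05 in edgeR, DESeq2 and limma voom under all alternatives except that Igtp was called lower without doxycycline replicate 2. Leaving out 1 library at a time gave 0 to 1 members called lower, 0 to 2 other GTPases (0 without untreated replicate 2 or doxycycline replicate 3), 1 to 2 JAK, STAT and IRF genes, 0 to 2 vacuole-loading genes (0 without untreated replicates 1 or 3 or doxycycline replicate 3) and 0 to 1 interferon gamma targets. The added calls were those of Gbp9, Irf1, Ube2l6 and Psmb8 without doxycycline replicate 2 and of Serping1 without doxycycline replicate 1. With no filter, 1 JAK, STAT and IRF gene (Irf7) and 1 effector (Pycard) were called higher, and 2 vacuole-loading genes (Map1lc3a and Sqstm1), 1 effector (Casp4) and 1 interferon gamma target (Serping1) were called lower. Over all genes 404 were called in the reported fit, 649 with no filter, and between 160 (without untreated replicate 3) and 756 (without doxycycline replicate 2) with a library left out.

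Signs turned in 5 members. With a library left out, log2 fold changes ran from -0.24 to 0.071 for Gbp7, -0.57 to 0.072 for Igtp, -0.13 to 0.13 for Irgm2, -0.04 to 0.49 for Iigp1 and -0.078 to 0.47 for Tgtp1. Those of Gbp2 (-0.34 to -0.27), Gbp6 (-0.45 to -0.12), Gbp3 (0.12 to 0.41) and Irgm1 (0.11 to 0.30) kept their signs. The median of the members was -0.13 once doxycycline replicate 2 was dropped and 0.13 once replicate 3 was, and 3 to 7 members were higher by sign. The same ranges were -0.12 to 0.068 for Socs1, -0.46 to 0.67 for Carns1, -0.14 to 0.13 for Mmaa, -0.17 to 0.10 for Maged2, -0.16 to 0.14 for Parp14, -0.18 to 0.062 for Gas8 and -0.076 to 0.091 for Chmp2a. Limma voom gave -0.068 for Carns1. Mmaa, at 0.002 in the reported fit, was at -0.0045 with upper quartile factors, -0.0084 with library size only, -0.0011 with no filter, -0.011 with the replicate block and -0.0066 with limma voom. The cause was not tested.

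Same-numbered libraries correlated at -0.040, -0.004 and 0.018 in their deviations from the group means, so no pairing by number was seen in the values. With 3 libraries a group this cannot show whether same-numbered cultures were set up together. The paired fit, with the replicate block, called 0 members higher and 0 lower, with a median log2 fold change of -0.02, and 418 genes in all. Without division by length, 4 of 9 members kept their rank by level. Depth limits Tgtp1, Iigp1 and Gbp6 most, with 31 to 113 counts a library. The comparison of protein sequences was not run.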

Other observations

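The libraries labelled doxycycline also differed from each other in genes that are no members. Measured from the untreated mean on the log2 CPM scale, the median of 24 tested interferon gamma targets was -0.09 in replicate 1, -0.08 in replicate 2 and -0.24 in replicate 3. For 13 inflammasome and cell death genes the medians were -0.04, -0.02 and -0.31. For 15 other GTPase genes they were 0.01, 0.07 and -0.32, close to the members in replicate 3 and below them in replicate 2. For 15 JAK, STAT and IRF genes they were 0.01, 0.10 and -0.03, and for 6 lipid-attachment enzymes 0.02, 0.03 and 0.04. Replicate 2 was the highest and replicate 3 the lowest doxycycline library in 11 of the 24 interferon gamma targets, 6 of the 15 other GTPases, 5 of the 15 JAK, STAT and IRF genes, 3 of the 13 inflammasome and cell death genes, 3 of the 13 inhibitors, 3 of the 14 vacuole-loading genes, 1 of the 6 receptor genes and 1 of the 6 lipid-attachment enzymes, beside 16.1% of all tested genes. These differences between lists were not tested.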
